A study of Mus musculus with 3 samples.

Results

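The Iqcf genes are a family of small, testis-expressed genes on mouse chromosome 9. The 5 genes described here, Iqcf1, Iqcf3, Iqcf4, Iqcf5 and Iqcf6, were taken by symbol out of 31053 genes in the count tables, as neighbours in 1 gene cluster. They were chosen because Iqcf1 was known from these same data to be lower in spermatids of 2 mutants, so the level of Iqcf1 is given as a description. The question was whether the other members shared that difference, and at which stage of spermatid development.

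The proteins of this family carry an IQ motif, a short helical stretch through which proteins bind calmodulin, the main calcium sensor of the cell. IQCF1 is known as a protein of the sperm acrosome, the enzyme-filled cap used at fertilisation. Spermatids arise from meiosis as round cells (RS), in which the acrosome forms, and then become elongating spermatids (ES), in which transition proteins and then protamines replace histones and transcription stops. Transcripts of late spermatid proteins are therefore made early and stored, and GRTH (gonadotropin-regulated testicular RNA helicase, gene Ddx25) is a helicase of male germ cells with known roles in the export, storage and translation of such transcripts.

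The members stood on a stretch of 127709 bases, chr9:106499967-106627675 of build GRCm38, with 0 genes of other families between them. Iqcf1 (ENSMUSG00000066383, plus strand, chr9:106499967-106502254) came first, followed by Iqcf3 (ENSMUSG00000023577, minus strand, chr9:106503225-106561631), whose span holds the whole of Iqcf5 (ENSMUSG00000066382, plus strand, chr9:106514573-106516010). Iqcf4 (ENSMUSG00000041009, minus strand, chr9:106568319-106570996) and Iqcf6 (ENSMUSG00000091129, plus strand, chr9:106626582-106627675) lay further on. The longest annotated transcripts were 537 to 1147 bases long with 2 to 5 exons. No exon base of Iqcf5 overlapped an exon of Iqcf3, and the longest run of bases shared by transcripts of any pair of members was 20.

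The starts of 4 of the 5 genes had a short sequence in common, shown here because the genes lie side by side and were read together. The 100 bases at each RefSeq start (GRCm38.p6, in the direction of transcription) are printed with TGACNTCA in capitals. This is the palindromic cyclic AMP response element, TGACGTCA, with its central base left free, and spermatids are known for a strong activator of that element, CREM. Iqcf6 does not hold that word, and the capitals there mark the shorter site TGACG. Runs end at the base before the start, except that of Iqcf5, which ends at the fourth base of the transcript. The order is that on the chromosome, with plus strand runs at chr9:106499867-106499966 (Iqcf1), chr9:106514477-106514576 (Iqcf5) and chr9:106626501-106626600 (Iqcf6), and minus strand runs at chr9:106544687-106544786 and chr9:106561626-106561725 (the second and first start of Iqcf3) and chr9:106570968-106571067 (Iqcf4).
Iqcf1: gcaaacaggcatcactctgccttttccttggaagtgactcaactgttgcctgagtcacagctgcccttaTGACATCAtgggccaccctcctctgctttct
Iqcf5: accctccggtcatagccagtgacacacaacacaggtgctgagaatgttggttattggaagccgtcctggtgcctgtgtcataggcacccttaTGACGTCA
Iqcf3 start 2: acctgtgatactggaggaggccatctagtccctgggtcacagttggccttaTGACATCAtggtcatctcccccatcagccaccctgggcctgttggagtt
Iqcf3 start 1: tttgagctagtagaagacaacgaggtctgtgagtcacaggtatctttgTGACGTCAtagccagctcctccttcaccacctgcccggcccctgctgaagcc
Iqcf4: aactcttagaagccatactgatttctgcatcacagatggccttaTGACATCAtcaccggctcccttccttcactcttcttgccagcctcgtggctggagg
Iqcf6: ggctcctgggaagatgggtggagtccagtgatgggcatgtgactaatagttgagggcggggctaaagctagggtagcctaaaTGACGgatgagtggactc

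Within 250 bases before the start, on both strands, the full element TGACGTCA was present at 1 of 6 starts and in 1.55% of 32817 promoters of all genes. The shorter site TGACG was present at 2 of 6 starts and in 17.7% of promoters. The looser word TGACNTCA, which includes the full element and was chosen after the sequences had been seen, was present at 4 of 6 starts against 7.49% of promoters, and at 5 of 6 against 8.84% once the first 50 bases of the transcript were included. It began 31 bases before the start of Iqcf1, 52 and 49 bases before the first and second starts of Iqcf3, and 56 bases before that of Iqcf4. The longer word CTTATGACNTCA, also chosen from the sequences, stood at 4 of 6 starts in the longer window and in 16 promoters of all genes, or 0.0488%. These 16 promoters belonged to 16 genes, 4 of which were members. The other words searched were CCAAT at 4 of 6 starts (33.8% of promoters), TATAAA at 1 of 6 (12.4%), ATTGT at 0 of 6 (27.7%) and the X-box of RFX factors at 0 of 6 (0.11%). A match is a description of letters, and no binding was measured.

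**Figure D1:**
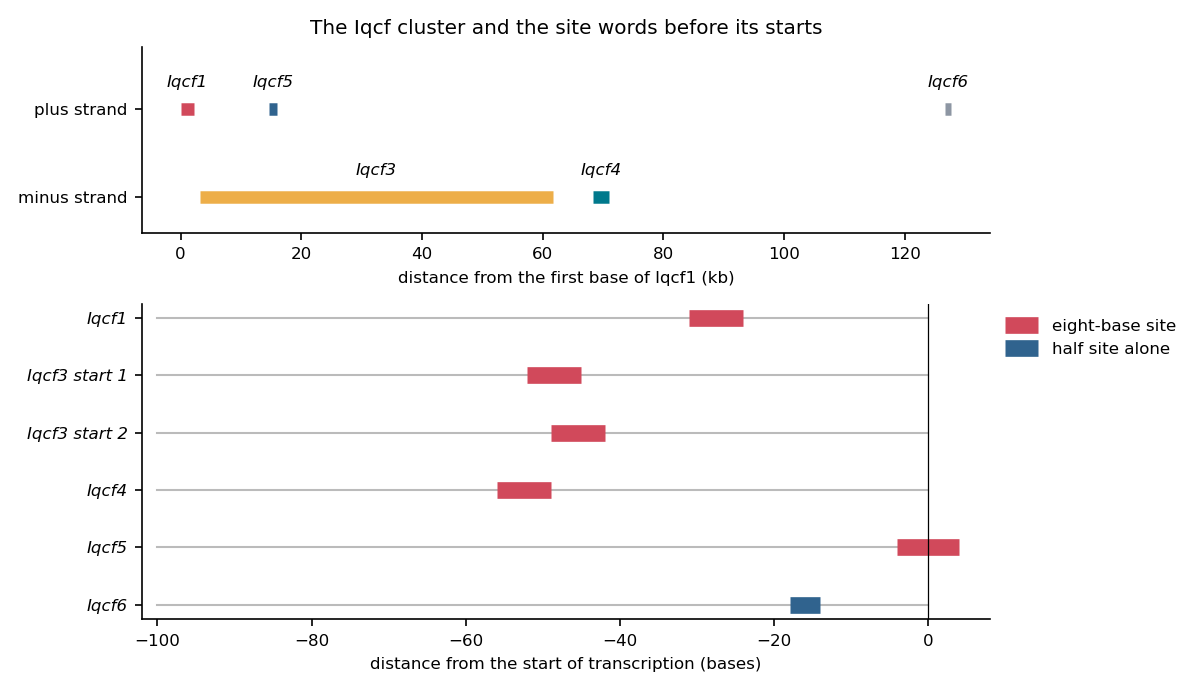
Map of the 5 Iqcf genes along their stretch of chromosome 9, with each gene's strand, above the place of the TGACNTCA word (or, in Iqcf6, the shorter site) relative to each RefSeq start in bases. The words of Iqcf1, Iqcf3 and Iqcf4 sit between 31 and 56 bases before the start, and that of Iqcf5 lies across its start.

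The data were 3 libraries of dissociated testis cells of C57BL/6 mice labelled as 8 weeks old, sequenced as 10x Genomics 3′ single-cell libraries, with 1 library per genotype. WT was wild type, KO lacked GRTH, and KI carried the human GRTH gene with an arginine-to-histidine change, which leaves the non-phosphorylated protein but not its phosphorylated form, pGRTH. Each genotype is represented by 1 preparation, described in the labels as 1 mouse and in the study's methods as pooled testes, so differences between genotypes come without a replicate check and none was tested. Intervals below are exact 95% intervals and cover counting error only. After filtering, 5856 WT, 4068 KO and 1569 KI cells remained, with median totals of 5142.5, 3969.5 and 11754 UMIs (unique molecular identifiers, each marking 1 captured transcript molecule). Of their barcodes, 8 to 36 were shared between any pair of libraries. Ddx25 had 7150 UMIs in WT cells, 14 in KO cells and 4114 in KI cells, so the level matched the KO label.

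Cells were clustered after integration of the libraries with the members, their listed relatives and late spermatid genes left out (76 genes), and a cluster was named only from its markers. Clusters 8 and 7 were RS-like, in the order of their protamine transcripts, and clusters 1 and 4 were ES-like. Cluster 3 scored highest for RS (0.86, against 0.78 in cluster 8), with 4 of 13 RS markers higher. It stayed unnamed because its leading genes held a marker of another class. Cluster 2, with low UMI totals, stayed unnamed as well. Without integration, WT cells of clusters 3 and 8 fell mainly in the same clusters (337 and 312 against 131 and 107 cells). Their median totals were 11433 and 2534 UMIs. Cluster 3 was therefore not placed as a stage before cluster 8. Cluster 8 held 246 WT, 327 KO and 99 KI cells, and cluster 7 held 453, 219 and 99, so that most RS-like WT cells came from cluster 7 and most RS-like KO cells from cluster 8. Cluster 1 held 1141, 393 and 139 cells. Cluster 4, the latest WT spermatids, held 1116 WT cells but 7 KO and 2 KI cells. The ES-like class of the mutants was therefore nearly all cluster 1, and without integration most of these mutant cells (353 of 393 KO cells) fell in a cluster of their own rather than with WT cells.

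In WT cells the members reached their highest levels in different clusters. Values are UMIs of a gene per 1000000 UMIs of the cells concerned (CPM). In cluster 3, Iqcf5 stood at 154 CPM, Iqcf3 at 135, Iqcf4 at 133, Iqcf1 at 34.9 and Iqcf6 at 3.88. All 5 levels were below those of Sertoli-like cells of the WT library, the background described further on (235, 284, 318, 291 and 37.5 CPM), so no order of onset was read from cluster 3. Median totals were 11433 UMIs in WT cells of cluster 3 and 1369 in these Sertoli-like cells. Whether free transcripts take the same share of UMIs in both was not tested, so levels below the background do not show that expression was absent. Against Sertoli-like WT cells clustered without integration, Iqcf5, Iqcf3 and Iqcf4 were above the background (106, 96.2 and 112 CPM) and Iqcf1 was below it (140 CPM). In cluster 8 Iqcf3 led with 345 CPM, with Iqcf4 at 205, Iqcf5 at 146, Iqcf1 at 105 and Iqcf6 at 6.57 (5 UMIs). In cluster 7 Iqcf1 was the most abundant member at 1437 CPM (interval 1413 to 1462), ahead of Iqcf3 at 998, Iqcf4 at 616, Iqcf5 at 604 and Iqcf6 at 267. The levels of Iqcf4 and Iqcf5 there had overlapping intervals (600.1 to 633 and 588 to 621).

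Late WT spermatids divided the family. Iqcf1 was highest in cluster 1, at 2391 CPM, and stood at 206 CPM in cluster 4. Iqcf6 likewise went from 163 CPM in cluster 1 to 7.89 in cluster 4. Iqcf4 did the opposite, at 994 CPM in cluster 1 and 2678 in cluster 4, and Iqcf5 was also higher in cluster 4, at 1361 against 864 CPM. Iqcf3 changed less, from 1781 to 1498 CPM. When WT cells were clustered without integration, the members again peaked in different clusters: Iqcf1 and Iqcf3 reached 2649 and 1909 CPM in a cluster of 672 cells, Iqcf5 1385 CPM in one of 1043 cells, and Iqcf4 3394 CPM in one of 609 cells, where Iqcf1 stood at 148 CPM.

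**Figure D2:**
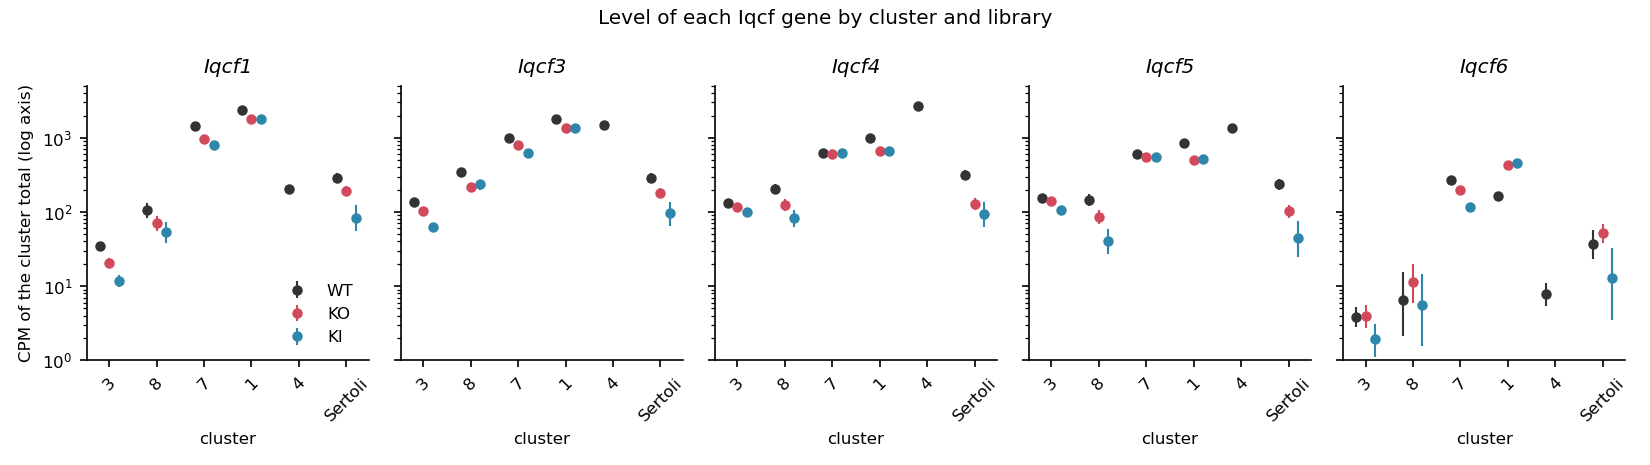
Level of each Iqcf gene in CPM (log axis) in WT, KO and KI cells of clusters 3, 8, 7, 1 and 4 and in Sertoli-like cells, with exact Poisson 95% intervals. Iqcf1 and Iqcf6 peak in cluster 1 or 7 and drop in cluster 4 of WT, whereas Iqcf4 is highest there, at 2678 CPM.

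The make-up of the family differed between the clusters as well. A 3′ UMI counts 1 molecule whatever the length of its transcript, although the capture of each transcript is unknown, so shares of the family's UMIs were compared. Of all UMIs of the 5 genes in WT cells, Iqcf5 took the largest share in cluster 3 (33.3%, at levels below the background), Iqcf3 in cluster 8 (42.8%), Iqcf1 in clusters 7 (36.6%) and 1 (38.6%), and Iqcf4 in cluster 4 (46.6%). In cluster 8 the levels of all members but Iqcf3 were also below the Sertoli-like background of the integrated clustering. In cluster 7 the share of Iqcf1 was 36.6% in WT against 30.5% in KO and 29.1% in KI, and that of Iqcf4 was 15.7%, 19.3% and 23.1%. The shares of Iqcf3 in cluster 7 were 25.4%, 25.9% and 23.3%. In cluster 1 the shares of Iqcf1 were alike, at 38.6%, 37.8% and 37.8%, while Iqcf6 took 2.63% in WT against 9.02% in KO and 9.58% in KI.

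**Figure D3:**
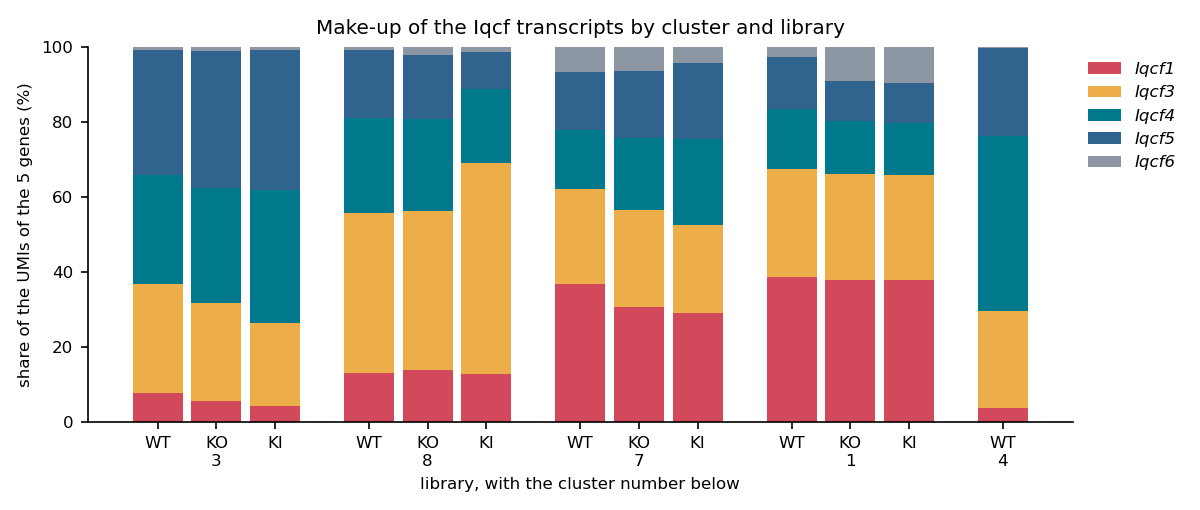
Share of each gene in the UMIs of the Iqcf family, in percent, in each cluster and library, with clusters 3, 8, 7, 1 and 4 from left to right. Cluster 3 is unnamed and was not placed by stage. The largest share in WT is that of Iqcf5 in cluster 3, Iqcf3 in cluster 8, Iqcf1 in clusters 7 and 1 and Iqcf4 in cluster 4, and the bars of cluster 4 exist for WT alone because the mutants hold too few of these cells. WT levels in cluster 3, and of all but Iqcf3 in cluster 8, were below the Sertoli-like background of the integrated clustering. These 3 classes differ in depth, with WT median totals of 11433, 2534 and 1369 UMIs.

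In RS-like cells (699 WT, 546 KO and 198 KI cells) all 5 members were lower in both mutants, by unequal amounts. Iqcf1, the acrosomal member, stood at 1333 CPM in WT against 790 in KO and 690 in KI. Both mutants were low, with log2 ratios to WT of −0.75 (interval −0.80 to −0.71) and −0.95. Iqcf3 stood at 947, 700 and 578 CPM, which gave log2 ratios of −0.44 and −0.71. Iqcf6, the least abundant member, stood at 246, 165 and 100 CPM, and at log2 ratios of −0.57 and −1.29 it was the lowest member in KI. Iqcf4 and Iqcf5 differed least. Iqcf4 stood at 584, 516 and 552 CPM (log2 ratios −0.18 and −0.08), and Iqcf5 at 568, 470 and 481 CPM (−0.27 and −0.24).

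The genes as a whole did not centre on 0 in this comparison, with a median ratio of 0.36 (log2) in both mutants over the 8310 genes whose mean level was at least 10 CPM. The median of the members was −0.44 in KO and −0.71 in KI. At a log2 ratio of −0.5 or lower stood 2 of 5 members in KO (Iqcf1 and Iqcf6), against 11.2% of all genes, and 3 of 5 in KI (those with Iqcf3), against 13.2%. Iqcf1 is among them because it chose the family, and of the other 4 members there were 1 and 2, with medians of −0.35 and −0.48. Relative to the median of all genes, Iqcf1 was at −1.12 and −1.31 and Iqcf4, the least different in KI, at −0.54 and −0.44, so no scaling tried turned a member higher in this class. Both comparisons use the same WT library, so that they are not independent of each other. Subtracting the level that Sertoli-like cells of the same library showed left Iqcf1 at −0.80 in KO and −0.78 in KI, but put Iqcf4 above WT (0.55 and 0.78) and Iqcf5 too (0.14 and 0.38). The subtraction takes free transcripts to be the same share of UMIs in both classes, which was not tested. Median totals in WT, KO and KI were 1369, 1574.5 and 1143 UMIs in Sertoli-like cells against 10005, 4135.5 and 14752.5 in RS-like cells. With Sertoli-like cells taken from the clustering without integration, an alternative added after the data had been seen, Iqcf1 was at −0.92 and −0.95, Iqcf4 at −0.23 and 0.02 and Iqcf5 at −0.25 and −0.09, so the sign of Iqcf4 in KO and of Iqcf5 depended on which cells gave the background.

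The RS-like class mixes clusters in other proportions in each library, and the clusters were therefore read singly. In cluster 7, Iqcf1 stood at 1437 CPM in WT against 953 in KO and 790 in KI (log2 ratios −0.59 and −0.86). Iqcf3 and Iqcf6 were lower in both mutants as well, Iqcf3 at 998, 809 and 632 CPM and Iqcf6 at 267, 200 and 115 CPM. Iqcf4 was level, at 616, 604 and 625 CPM, with intervals of both ratios that include 0, and Iqcf5 stood at 604, 557 and 550 CPM, lower by less, with both intervals below 0. The median of all genes was 0.31 (KO) and 0.33 (KI) in this cluster. Set against it, Iqcf4 was at −0.33 and −0.31, and Iqcf5 at −0.43 and −0.47. A log2 ratio of −0.5 or lower was reached by 1 of 5 members in KO (12.4% of all genes) and 3 of 5 in KI (15.2%), which without Iqcf1 is 0 of 4 and 2 of 4.

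In cluster 8 the order was another. Iqcf3 stood at 345 CPM in WT against 217 in KO and 235 in KI, Iqcf4 at 205, 125 and 83.1, Iqcf5 at 146, 86.5 and 40.8, and Iqcf1 at 105, 70.4 and 53.5. These 4 genes were at −0.5 or lower in both mutants (14.4% and 16.9% of all genes; 3 of 4 without Iqcf1), and their levels were low in all 3 libraries. Iqcf6, with 5, 12 and 4 UMIs, did not pass the filter of 10 CPM and was too sparse for a direction. Sertoli-like cells, which should not express the family, held more Iqcf1 than this cluster in each library (291, 194 and 84.0 CPM), and also more Iqcf4 (318, 128 and 93.7) and Iqcf5 (235, 103 and 45.2). Only Iqcf3 was above their level in each library (284, 179 and 96.9 CPM), with overlapping intervals in WT (305 to 390 against 243 to 331) and in KO (189.5 to 247 against 154 to 209), and the levels of the other members in cluster 8 cannot be read as expression by this background. Against Sertoli-like cells clustered without integration, Iqcf1 was again below in each library (140, 161 and 72.0 CPM), whereas Iqcf4 was above (112, 113 and 72.0). Median totals were 2534, 2862 and 5870 UMIs in cluster 8, against 1369, 1574.5 and 1143 in Sertoli-like cells of the integrated clustering. Whether free transcripts take the same share of UMIs in both was not tested.

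**Figure D4:**
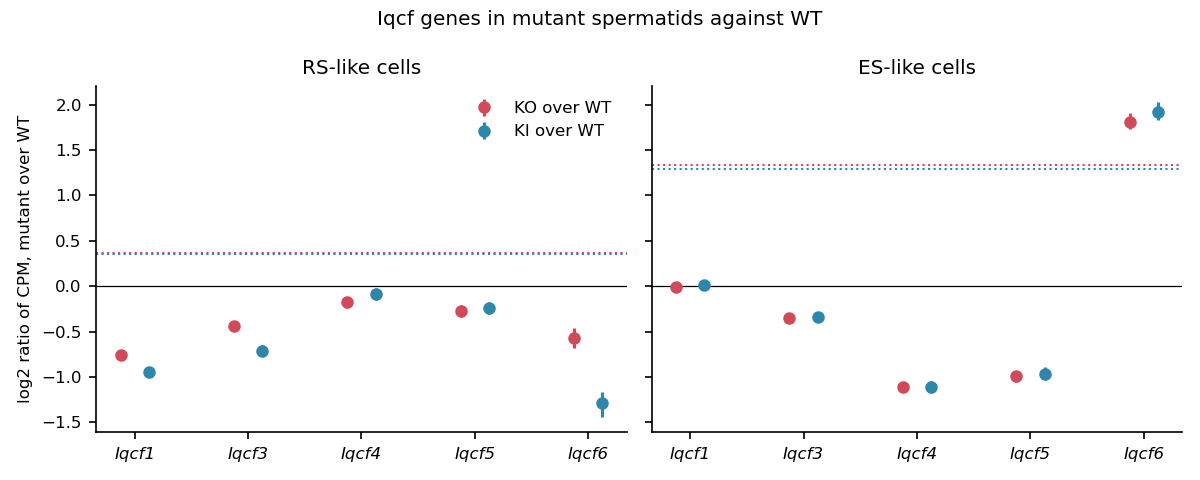
Log2 ratio of KO and of KI to WT for each Iqcf gene in RS-like and ES-like cells, with counting intervals, the solid line at 0 and dotted lines at the median of all genes for each mutant. In RS-like cells all 5 ratios lie below 0, from −0.08 to −1.29. In ES-like cells Iqcf6 lies at 1.81 and 1.92, where the dotted lines lie at 1.34 and 1.29.

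In ES-like cells (2257 WT, 400 KO and 141 KI cells) the pattern was not that of RS-like cells. Iqcf1 stood at 1795 CPM in WT against 1786 in KO and 1816 in KI, with log2 ratios of −0.01 and 0.02 and intervals that include 0. Iqcf4 and Iqcf5, the latest members, were the low ones: Iqcf4 stood at 1454, 673 and 674 CPM (log2 ratio −1.11 in both mutants) and Iqcf5 at 1000, 503 and 513 CPM (−0.99 and −0.96). Iqcf3 stood at 1704, 1339 and 1349 CPM, between these. A log2 ratio of −0.5 or lower was reached by 2 of 5 members in both mutants, against 9.13% of genes in KO and 8.95% in KI. The median of all genes was 1.34 and 1.29 in this class, in which protamine and transition protein transcripts (Prm1, Prm2, Tnp1 and Tnp2) took 29.3% of the WT UMIs but 8.21% and 8.95% in the mutants. Set against that median, Iqcf1 was at −1.35 and −1.27, so whether Iqcf1 counts as lower in ES-like cells depends on the scale.

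Cluster 1, the ES-like cluster that all genotypes hold, gave values less shaped by the missing late cells. Iqcf1 stood at 2391 CPM in WT against 1789 in KO and 1820 in KI, lower in both mutants (log2 ratios −0.42 and −0.39). Set against the median of all genes in this cluster, Iqcf1 was at −1.68 and −1.59. Iqcf3 was lower by a like amount, at 1781, 1340 and 1348 CPM. Iqcf4 stood at 994, 671 and 671 CPM and Iqcf5 at 864, 504 and 512 CPM, and these were the 2 of 5 members at −0.5 or lower in each mutant (8.38% and 7.83% of all genes). The cells of this cluster were not at 1 stage, since protamine and transition protein transcripts took a median of 32.3% of the UMIs of a WT cell, 6.93% of a KO cell and 7.51% of a KI cell.

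Iqcf6 changed direction between the classes. In RS-like cells it was lower in both mutants, and in cluster 1 it stood at 163 CPM in WT against 427 in KO and 461 in KI, which are log2 ratios of 1.38 and 1.50. Most genes were also higher in cluster 1, where 71% (KO) and 70.1% (KI) of all genes were at 0.5 or higher. Iqcf6 was above the median of all genes in cluster 1 by 0.124 and 0.299 only. It was the only member at a log2 ratio of 0.5 or higher in ES-like cells, where 73% and 71.1% of all genes were at 0.5 or higher. Its ratio there was above the median of all genes by 0.47 and 0.63. In WT cells Iqcf6 was highest, at 627 CPM, in those cells of cluster 7 with the most protamine transcripts, and the mutants had 0 such cells. Cluster 1 was not matched either: cells with 15% or more of their UMIs from protamine and transition protein genes were 97.0% of its WT cells, and cells with 5 to 15% were 79.1% of its KO and 77.7% of its KI cells. At 5 to 15% within cluster 1, Iqcf6 stood at 406 CPM in 31 WT cells against 443 in KO and 484 in KI. Those WT cells held 56596 UMIs in all, and no interval was given.

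To compare cells of like stage, spermatids were also divided by the share of Prm1, Prm2, Tnp1 and Tnp2 in their UMIs, into under 1%, 1 to 5%, 5 to 15% and 15% and over. These windows are ranges of a score and not cell types, and 346, 207 and 162 of 5816 cells lay within 20% of the value of the 3 bounds. The last window held 2200 WT cells, 1 KO cell and 5 KI cells and was not compared. Under 1% (609 WT, 1100 KO and 392 KI cells), Iqcf1 stood at 634, 513 and 476 CPM. At 1 to 5% (525, 202 and 67 cells) it stood at 1188, 1175 and 1296 CPM, and at 5 to 15% (277, 324 and 114 cells) at 1646, 1857 and 1827 CPM. These windows did not hold the same clusters in each library. At 5 to 15%, 104 of the WT cells came from cluster 7 and 31 from cluster 1, against 12 and 311 of the KO cells and 2 and 108 of the KI cells. Within cluster 7 at 5 to 15%, Iqcf1 stood at 1784 CPM in WT and 1670 in KO. The 12 KO cells there were below the minimum of 20 set for ratios. Within cluster 1 it stood at 1308 in WT, 1870 in KO and 1831 in KI, and the 31 WT cells held 56596 UMIs in all. No intervals were given for these subsets, so no direction in KO was read from them. At 1 to 5%, 395 WT, 72 KO and 27 KI cells came from the unnamed cluster 2, and under 1% these were 185, 609 and 210.

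The 5 genes had a median of −0.29 (KO) and −0.21 (KI) on the log2 scale under 1%, −0.02 and 0.13 at 1 to 5%, and 0.17 and 0.15 at 5 to 15%. Without Iqcf1, which chose the family, the medians were −0.17 and −0.18, then 0.02 and 0.19, and then 0.20 and 0.15. No member reached −0.5 in any of these protamine windows in either mutant, where 8.9%, 20.1% and 19.7% of all genes did so in KO and 10.4%, 25.1% and 20.4% in KI. Iqcf6 was higher than WT in KO in all 3 windows, at 43.9 against 89.7 CPM, 169 against 305, and 348 against 446. In KI it stood at 43.2 CPM in the first window, level with WT, and at 311 and 482 in the others. Whether the protamine transcripts of a mutant cell mark the same stage as in WT was not tested, and windows set by ranks along a diffusion pseudotime gave medians below 0 in every window (KO −0.62, −0.12 and −0.18, KI −1.22, −0.46 and −0.21). The sign of the median thus differed between the 2 ways of staging for KI at 1 to 5% and for both mutants at 5 to 15%. The pseudotime windows were not matched in protamine and transition protein share between genotypes. In that at the place of 5 to 15%, the median cell held 23.4% in WT, 6.85% in KO and 7.05% in KI. In that at the place of 1 to 5% it held 1.45%, 0.51% and 0.25%.

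**Figure D5:**
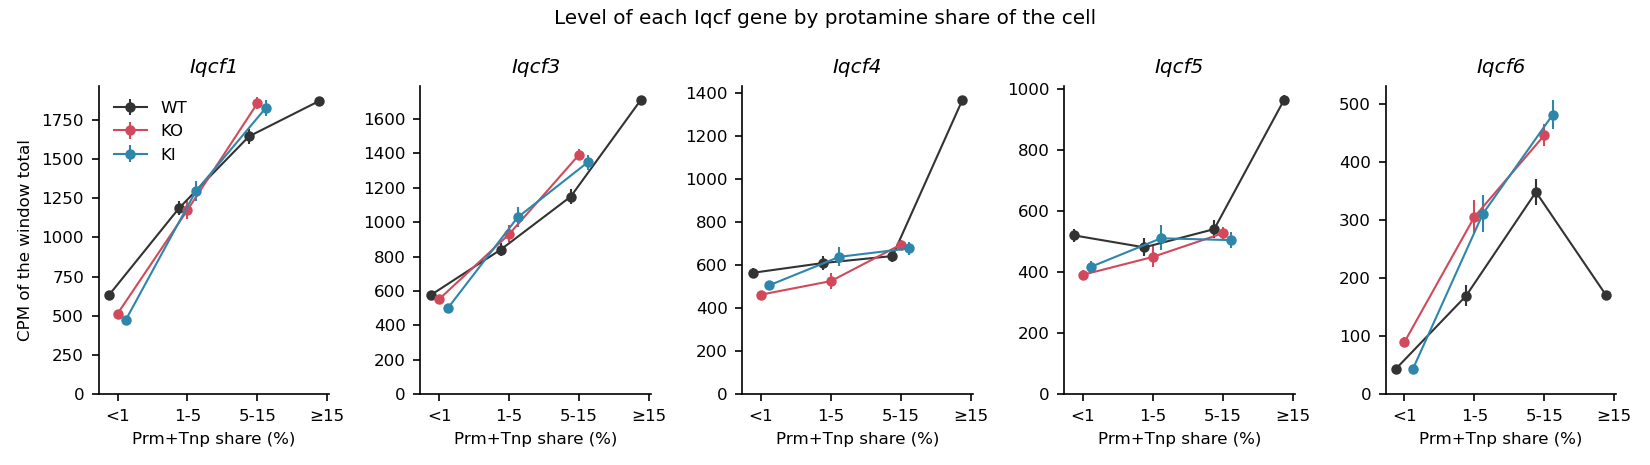
Level of each Iqcf gene in CPM in windows of the protamine and transition protein share of a cell, for WT, KO and KI, with exact Poisson 95% intervals. At 5 to 15% Iqcf1 stands at 1646 CPM in WT, below 1857 in KO and 1827 in KI, but the mutant cells there are nearly all of cluster 1 (311 of 324 and 108 of 114) and the WT cells are not (31 of 277), and the window of 15% and over is drawn for WT alone.

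Within cluster 7 the libraries differed in their mix of windows. The window under 1% held 44.2% of WT cells, 74.0% of KO cells and 81.8% of KI cells. In that window Iqcf1 stood at 740 CPM in WT against 750 in KO and 597 in KI, and at 1 to 5% at 1454, 1390 and 1380 CPM. When WT cells of cluster 7 were weighted to the window mix of each mutant, a comparison added after these values had been seen, the log2 ratio of Iqcf1 went from −0.59 to −0.02 in KO and from −0.86 to −0.20 in KI. That of Iqcf3 went from −0.30 to 0.18 and from −0.66 to −0.11, and that of Iqcf6 from −0.41 to 0.94 and from −1.21 to 0.38. Iqcf4 and Iqcf5 moved the other way by less, Iqcf4 from −0.03 to −0.10 and from 0.02 to −0.05, and Iqcf5 from −0.12 to −0.18 and from −0.14 to −0.20. The median of the members was then −0.02 in KO, the value of Iqcf1 itself, and −0.11 in KI, that of Iqcf3. Without Iqcf1, the members in KO lay on both sides of 0, Iqcf3 and Iqcf6 above and Iqcf4 and Iqcf5 below.

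Counted by cells, the difference was seen in the share of RS-like cells with a UMI. With each cell thinned to 2000 UMIs, Iqcf1 was found in 63.7% of 641 WT cells (59.8 to 67.4), 38.9% of 493 KO cells (34.6 to 43.4) and 37.3% of 193 KI cells (30.5 to 44.5). Without thinning the shares were 72.7%, 50.2% and 66.7%. Thinned shares of the other 4 members were lower in both mutants as well, such as 69.1%, 50.1% and 50.8% for Iqcf3. At least 3 of the 5 members were found in 59.3% of RS-like WT cells, 35.3% of KO cells and 31.6% of KI cells. In cluster 7 alone these shares were 81.4%, 70.8% and 58.6%, and in cluster 8 they were 6.88%, 6.57% and 5.32%. Sertoli-like cells, the background, gave shares of Iqcf1 of 40.6% (69 WT cells), 25% (92 KO cells) and 24% (25 KI cells) at the same depth, and their median totals were 1369, 1574.5 and 1143 UMIs against 10005, 4135.5 and 14752.5 in RS-like cells. The RS-like shares were above this background in each library, but the intervals were apart in WT alone (28.9 to 53.1 in Sertoli-like cells) and overlapped in KO (16.6 to 35.1) and KI (9.36 to 45.1). Sertoli-like cells clustered without integration gave 19.2% (9.63 to 32.5), 17.4% (10.3 to 26.7) and 22.6% (9.59 to 41.1), with intervals apart from the RS-like ones in WT and KO. Cluster 8 by itself was alike between libraries, at 14.3%, 14.6% and 14.9%, and was above neither background.

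These shares come from 1 random draw, and the mean over all draws, computed exactly, was 64.5%, 40.3% and 40.6% for Iqcf1 in RS-like cells. In smaller classes 1 draw moved shares by several points, and the shares that follow are such means. In cluster 7 alone the means were 85%, 73.4% and 65.4% for Iqcf1 and 80.7%, 73.1% and 65.9% for Iqcf3. Iqcf4 stood nearly level there, at 71.3%, 69.9% and 70.5%, and Iqcf5 at 69.9%, 66.8% and 65.3%. Iqcf6 was found in 34.2%, 27.4% and 16.2% of these cells.

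In ES-like cells the shares of Iqcf1 went the other way, at 65.7% in WT against 91.7% in KO and 90.3% in KI. Those of Iqcf4 were 91.6%, 68.6% and 63.0%, and those of Iqcf6 were 11.6%, 56.5% and 53.9%. In cluster 1 alone, without the late WT cells of cluster 4, WT, KO and KI shares of Iqcf1 were 94.5%, 92.0% and 90.8%. Thinned to 1000 UMIs, where fewer cells reach the ceiling, they were 83.3%, 72.1% and 69.8%.

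Family transcripts were also counted where they should be absent. In Sertoli-like cells the 5 genes together stood at 1166 CPM (WT), 657 (KO) and 333 (KI). At a log2 ratio of −0.5 or lower stood 4 of 5 members in KO and 5 of 5 in KI in Sertoli-like cells (11.3% and 21.4% of all genes). Iqcf6 stood at 37.5 CPM in WT against 51.7 in KO, with an interval of the log2 ratio (−0.29 to 1.26) that includes 0. The WT class held 19 cells that fell, without integration, in an ES-like cluster of WT cells alone. In the Sertoli-like class made without integration the sums were 479, 523 and 286 CPM, so that KO was not lower there, and Iqcf1 stood at 140, 161 and 72.0 CPM. In SP-like cells (spermatocytes) Iqcf3 stood at 29.3, 10.4 and 2.62 CPM and Iqcf1 at 15.9, 10.5 and 3.78 CPM, and these were the 2 members that passed the filter there. Levels in Sertoli-like cells were thus lower in KI under both clusterings and in KO under 1 of them, and the part of free transcripts in the RS-like differences was not tested beyond the subtractions given above.

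Other genes of calmodulin-binding proteins were counted in the same way. Of 19 other IQ motif genes in the tables, 13 passed the filter in RS-like cells, and 0 of these were at −0.5 or lower in either mutant, against 11.2% and 13.2% of all genes. At 0.5 or higher stood 8 in KO and 6 in KI, against 40.9% and 40.7% of all genes, and the medians were 0.60 and 0.39. Iqub stood at 93.1 CPM in WT against 198 in KO and 228 in KI, and Iqgap1, a scaffold protein of the cytoskeleton, at 131, 106 and 110 CPM. Of 18 genes of calmodulin and its partners, 12 passed the filter, with medians of 0.43 in KO and 0.19 in KI. The calmodulin gene Calm3 stood at 1134, 944 and 1032 CPM. The 1 gene at −0.5 or lower in both mutants was Cabs1, a calcium-binding protein of late spermatids, at 409, 224 and 177 CPM.

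Acrosome genes, among which IQCF1 is counted by location, were also counted in RS-like cells, where 11.2% (KO) and 13.2% (KI) of all genes were at −0.5 or lower. Of the 6 the study had singled out on these samples, which are therefore no independent evidence, 1 was at −0.5 or lower in KO (Capza3, an actin capping subunit, at 574 CPM in WT and 391 in KO) and 0 in KI. Of 15 further acrosome genes 1 was, Spaca9, at 1736, 1069 and 961 CPM, whereas Acrv1 of the first list stood at 666, 800.4 and 806 CPM. By qRT-PCR in isolated round spermatids, another measure on other cells and scaled to Tex29, the study reported the first list and Iqcf1 as lower in both mutants. The study wrote that these results bore out the genes that differed in its round spermatid cluster of these same libraries. In cluster 8 of KI, 4 of the 6 were at −0.5 or lower (16.9% of all genes), and in ES-like cells 14 of the 14 further acrosome genes that passed the filter were at 0.5 or higher in both mutants, with medians of 3.04 and 2.90, where 73% and 71.1% of all genes were and the median of all genes was 1.34 and 1.29. Late spermatid genes were the list with the most low members, with 10 of 14 at −0.5 or lower in RS-like cells in each mutant and medians of −0.84 and −1.14. Without Iqcf1, which chose the family, the median of the Iqcf genes was −0.35 and −0.48. It lay between that of the late spermatid genes and that of the 15 acrosome genes (0.30 and 0.21), as did the median with Iqcf1, −0.44 and −0.71.

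The 3 genes with the levels most like those of each member were sought among all genes. Over 44 points, each a cluster in 1 library with at least 20 cells, and among 10839 genes, Pearson's r of log2(CPM + 1) with Iqcf1 was highest for H1fnt, the linker histone of spermatids (0.98), 1700092M07Rik (0.96) and Hmgb4, a chromatin protein of the testis (0.96). Iqcf3 was nearest to Prm3 (0.97), followed by Ccdc54 and Fam71e1, and Iqcf4 to Gm9999 (0.99), followed by 1700009N14Rik and AI507597. Iqcf5 was nearest to 4930503B20Rik (0.98), then Lrrc18 and Tssk2, a testis-specific serine kinase (0.97). Iqcf6 was nearest to Banf2 (0.95), then Ccin, the sperm head protein calicin, and Prss52. Between the members r was 0.72 (Iqcf4 and Iqcf6) to 0.95 (Iqcf3 and Iqcf4), and no member was among the 3 most alike of another. The points share libraries and depth, so these values carry no test.

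The genes on either side of the members were less abundant than Iqcf1, Iqcf3, Iqcf4 and Iqcf5 in RS-like cells. Of the 5 nearest on each side, Gpr62, an orphan receptor gene, stood at 72.0 CPM in WT against 75.4 in KO and 46.3 in KI RS-like cells, and Tex264 at 68.9, 123 and 159 CPM, in KI above Iqcf6 (100.3 CPM). Pcbp4, Rrp9 and Rad54l2 stood between 6.32 and 17.7 CPM, and Gm28959, Parp3 and Grm2 had at most 10 UMIs. Gm28111, an antisense RNA that overlaps Grm2, had 185 UMIs in WT (19.1 CPM), 14 in KO and 3 in KI. Gm26185 was not in the tables.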

How the data were processed

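Testis cells of WT, KO and KI mice were profiled as 10x Genomics 3′ v2 libraries, with 7000 cells loaded for each. The authors deposited unfiltered counts of UMIs per gene and barcode. Per the labels these were made with Cell Ranger 2.1.1 on mm10, while the file headers name version 4 of its format. Totals were 82973909, 91388296 and 73150373 UMIs. Cells were called after the default method of Cell Ranger and kept with over 500 genes and under 10% mitochondrial UMIs. Libraries were integrated with Seurat 5.3.0 (sctransform 0.4.2) on 2000 genes and 100 principal components, and clustered with Leiden (leidenalg 0.10.2, resolution 0.3). A cluster was named from markers, by a scoring rule set after the clusters had been seen. Doublets were kept, and an alternative removed the cells of highest Scrublet score.

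UMIs were summed per class and library and divided by the class total (CPM). A log2 ratio has 1 CPM added to each side, and genes with a mean of at least 10 CPM over the libraries form the background. Intervals are exact (Poisson, Clopper-Pearson, 95.0%). No test was made, since each genotype had 1 library. The scripts were tested on simulated data. The named genes were the members, the 3 genes most alike to each, the 5 nearest genes on each side and fixed lists. Members and lists were chosen with earlier results of these data known. Promoter sequences are from RefSeq (GRCm38.p6), and gene positions from GENCODE for the same build, matched by gene ID. Protein sequences were not used here. Age is 8 weeks per the labels; the study's methods give a wider range.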

Additional observations from a re-analysis of the deposited data

Results flagged for a closer look

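The family was also counted in barcodes that hold no cell, which the comparisons do not use. There the 5 genes together stood at 2621 CPM in WT against 1852 in KO and 2307 in KI, above the level in Sertoli-like cells of the same library, and Iqcf1 alone at 817, 537 and 716 CPM. Free transcripts of the family were thus present in all 3 libraries, and lowest in KO. In Sertoli-like cells the family was instead lowest in KI under both clusterings, so these backgrounds did not rank the libraries alike.

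Iqcf6 stood out because its ratio to WT had opposite signs in the 2 spermatid classes. The log2 ratio was −0.57 in KO and −1.29 in KI in RS-like cells, and 1.81 and 1.92 in ES-like cells. The median of all genes was 0.36 in both mutants in RS-like cells, and 1.34 and 1.29 in ES-like cells. The difference between the classes was not tested, since each genotype had 1 library. The WT ES-like class holds 1116 cells of cluster 4, where Iqcf6 stood at 7.89 CPM, and the mutants hold 7 and 2 of these cells. In cluster 1 alone the ratios were 1.38 and 1.50, only 0.124 and 0.299 above the median of all genes in that cluster. Cluster 1 was also not matched, since 97.0% of its WT cells and 0 of its KO cells had 15% or more protamine and transition protein UMIs. Among its cells with 5 to 15%, Iqcf6 stood at 406 CPM in 31 WT cells, 443 in KO and 484 in KI. Those WT cells held 56596 UMIs in all, and no interval was given.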

How the results depend on the processing

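No paired analysis was possible because each genotype had 1 library. The median of the 5 members, Iqcf1 included, in RS-like cells (log2, KO −0.44, KI −0.71) stayed below 0 under every alternative run. It was −0.89 and −1.14 with TMM size factors, −0.80 and −1.07 when centred on all genes, −0.51 and −0.79 with Prm1, Prm2, Tnp1 and Tnp2 taken out of the total, −0.29 and −0.60 with classes made without integration, −0.28 and −0.56 with the listed genes kept for clustering, −0.30 in KO in cells called by UMI total alone, −0.72 in KO as a mean over cells, and −0.65 in KI with cluster 2 added. Alternatives chosen after seeing the data gave −0.35 and −0.46 with the Sertoli-like level subtracted, and −0.57 and −0.78 with that level taken without integration. They gave −0.30 in KO in cluster 7, −0.67 and −0.96 in cluster 8, and −0.60 and −1.05 with cluster 3 added. With WT weighted to the window mix the median was −0.021 and −0.11. That KO median is the value of Iqcf1 itself, the gene that chose the family. The other members then stood in KO at 0.18 (Iqcf3), −0.10 (Iqcf4), −0.18 (Iqcf5) and 0.94 (Iqcf6), on both sides of 0. In ES-like cells (−0.35 and −0.34) the median was −1.80 and −1.80 with TMM, −1.69 and −1.63 when centred, −0.72 and −0.70 without those 4 genes, −0.40 in KI by UMI total, −0.71 in KO with listed genes kept, −0.52 and −0.43 as a mean over cells, −0.29 and −0.18 after subtraction, −0.41 in KO with the level taken without integration, and −0.42 and −0.40 in cluster 1. ES-like classes without integration could not be compared, with 2 KO and 8 KI cells.

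Single members turned in RS-like cells after subtraction of the Sertoli-like level (Iqcf4 0.55 in KO and 0.78 in KI, Iqcf5 0.14 and 0.38, and Iqcf4 0.022 in KI with the level taken without integration), in cluster 7 (Iqcf4 0.021 in KI), in cluster 8 (Iqcf6 0.71 in KO) and with the weighted mix (Iqcf3 0.18 and Iqcf6 0.94 in KO, Iqcf6 0.38 in KI). Iqcf1 in ES-like cells took either sign, from −1.46 to 0.21 in KO (below 0 in 12 of 15 settings) and from −1.45 to 0.22 in KI (7 of 15). Iqcf6 in ES-like cells ranged from 0.36 to 2.80 in KO and from 0.47 to 2.42 in KI over the 15 settings. The windows were the least stable. With both bounds of each window doubled, the median in KO was 0.16 in place of 1 to 5% (Iqcf4 0.15). In place of 5 to 15% it was −0.18 in KO (Iqcf3 −0.18, Iqcf4 −0.86) and −0.15 in KI (Iqcf3 −0.15). The latter window reached past 15%, a range that held 2200 WT, 1 KO and 5 KI cells in all. With pseudotime ranks the windows were not matched in protamine share between genotypes, as given above. The KO medians were then −0.62 (Iqcf6 −0.59), −0.12 (Iqcf3 −0.042) and −0.18 (Iqcf1 −0.42, Iqcf3 −0.27). The KI medians were −1.22, −0.46 (Iqcf1 −0.62, Iqcf3 −0.46, Iqcf6 −0.92) and −0.21 (Iqcf1 −0.47, Iqcf3 −0.35). Without cluster 2 the medians of the protamine windows were −0.11 and −0.16 in KO in the first windows and −0.028 in KI at 1 to 5% (Iqcf1 −0.032). The cause was not tested. Without the filter on low genes, 4.87% of genes in KO ES-like cells were at −0.5 or lower, and 2.04% in each mutant at −1 or lower. By Spearman's rho, 8 of the 15 most alike genes remained so. The depth limits Iqcf6 in early clusters, and the lone library per genotype limits every comparison.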
